A study of Mus musculus with 15 samples.

Results

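The subunits of condensin, the ring-shaped protein complex that compacts chromosomes for division, were followed through mouse oocyte maturation. Its members here were 2 core ATPases, Smc2 and Smc4, 3 subunits of condensin I (Ncapd2, Ncapg and Ncaph) and 3 subunits of condensin II (Ncapd3, Ncapg2 and Ncaph2). Of the 45101 probe sets on the Affymetrix array, 22 carried exactly 1 of these 8 symbols in the platform annotation, and every such probe set was taken. Tests covered the 22519 probe sets in the upper 50% by mean signal. Of the 22 condensin probe sets, 17 were among them, with at least 1 for each of the 8 genes.

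All oocytes came from B6D2F1 hybrid female mice that had received pregnant mare serum gonadotropin (PMSG), which stimulates follicle growth. Adult females of 7 to 8 weeks gave oocytes at the germinal vesicle (GV) stage, the immature arrested stage with an intact nucleus (n = 2 arrays), collected 48 h after PMSG. They also gave metaphase II (MII) eggs matured in vivo after human chorionic gonadotropin (n = 3) or in vitro for 16 h in Gmat medium (n = 2). Peripubertal females at day 26 (d26) gave MII eggs matured in vivo (n = 2) and in vitro (n = 3), and prepubertal females at day 20 (d20) gave MII eggs matured in vitro (n = 3). Each array held poly(A) RNA of a pool of 150 oocytes, stripped of cumulus cells with hyaluronidase, and GV oocytes were taken from adults only. No label ties the pools to separate animals, so p-values measure the spread between these pools, which may be technical. Values below are log2 intensities after quantile normalization across arrays, so each is relative to the other transcripts on its array. A fall in poly(A) RNA per oocyte that all transcripts shared would not appear in them.

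Condensin I and condensin II share the ATPase pair SMC2 and SMC4 and differ in their other subunits. Each has a kleisin that closes the ring (NCAPH in condensin I, NCAPH2 in condensin II) and a pair of HEAT-repeat proteins (NCAPD2 and NCAPG, or NCAPD3 and NCAPG2). In dividing cells condensin II is in the nucleus before the nuclear envelope breaks down, whereas condensin I reaches the chromosomes afterwards. Oocytes resuming meiosis must condense their bivalents with little new transcription, from stored mRNA and protein.

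The HEAT-repeat subunits Ncapg and Ncapg2, paralogs in the 2 complexes, are the pair whose probe sets moved in opposite directions below, so their promoter sequences are shown. A stretch of 30 bases before each RefSeq start (GRCm38.p6, plus strand) holds the letters TTTGAA, the core of the cell cycle genes homology region (CHR), an element found in many genes of the G2 and M phases. Capitals mark the match, which begins 30 bases before the start in Ncapg, at chr5:45669883-45669912, and 18 bases before it in Ncapg2, at chr12:116405406-116405435.
Ncapg: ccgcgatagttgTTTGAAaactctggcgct
Ncapg2: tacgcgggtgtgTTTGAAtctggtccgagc
RefSeq windows from 250 bases before to 50 after a start were found for 7 of the 8 genes, all but Smc4. TTTGAA on either strand occurred in 5 of the 8 windows of these genes (Smc2, Ncapd2, Ncapg, Ncapg2 and 1 of the windows of Ncapd3), against 17.9% of the 32851 windows of that length. The CCAAT box, searched as CCAAT on both strands, occurred in 3 of the 8 windows (Smc2, Ncapg and Ncapd2), against 37.4% of all windows. These are letter matches, and no binding was measured.

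Arrays differed in brightness. The number of probe sets with an intensity above 200, as deposited, was 2615 to 3042 on 4 arrays and 4882 to 9819 on the other 11, with both GV arrays the brightest. These 4, called dim arrays, were replicate 1 of adult in vivo, replicate 2 of adult in vitro, and replicates 2 and 3 of the d26 in vitro group. Results are also given without them. The tissue matched its label. Of 11 oocyte markers with a probe set, 10 or 11 lay above the filter level of 3.07 in every group, and Gdf9, an oocyte growth factor, was at 13.55 ± 0.07 (SD, n = 2) in GV. Not all of these markers were level across stages. Their summed linear signal was 55370 to 60300 in GV and 23120 to 40090 in MII arrays, and the zona pellucida gene Zp3, for example, had group means of 13.15 in GV and 8.79 to 9.47 in MII. Markers of other cells differed between groups too. The summed linear signal of 12 cumulus and granulosa genes was 229 to 265 in GV arrays and 327 to 491 in MII arrays. That of 8 leukocyte genes was 60.3 to 61.9 in GV, 266 to 506 in adult in vivo MII and 51.8 to 139 in the other groups. That of 4 oviduct genes was 29.4 to 33.6, 101 to 410 and 16.9 to 71.2 in the same order. Of 5 red blood cell genes only 2 had a probe set, and their sum was 18.6 to 54.0 in adult in vivo MII and 2.08 to 30.3 elsewhere. The part of these cells in the results was not tested.

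In adult MII oocytes, 1 of the 3 probe sets of the core subunit Smc4 was called lower than in GV oocytes. Probe sets of the condensin I subunits Ncapg and Ncaph were also called lower, the in vivo Ncaph call being lost in 10 of 24 alternatives. That of the condensin II subunit Ncapg2 was called higher (on the scale as deposited the Ncapg2 difference was not called and turned to -0.05 in vitro). Whether direction follows the complex is not settled by these values. Without calls, Ncaph2 of condensin II lay lower (-1.0 and -1.25 on 1439360_x_at) and Ncapd2 of condensin I higher (1.28 and 1.12 on 1423847_at). The sign of the Ncapd2 difference depends on the scaling. After maturation in vivo, 4 of the 17 condensin probe sets fell and 1 rose at an adjusted p below 0.05 (limma, Benjamini-Hochberg over all probe sets tested). Over all probe sets, 11.1% fell and 15.7% rose. After maturation in vitro 5 fell and 1 rose, against 11.7% and 16% of all. The median log2 difference of the 17 was -0.95 in vivo and -1.0 in vitro, beside 0.24 and 0.13 over all probe sets tested. The 17 count some genes more than once. With only the brightest tested probe set of each of the 8 genes, the medians were 0.003 in vivo and -0.46 in vitro. Over all genes taken that way they were 0.26 and 0.13. Without the dim arrays 5 fell and 3 rose in vivo and 5 fell and 2 rose in vitro, against 15.5% and 23.4%, and 15.6% and 19.8%, of all. On the scale as deposited, where MII arrays are dimmer, 3 fell and 0 rose in vivo and 9 fell and 0 rose in vitro, against 15.5% and 0.102%, and 27.6% and 0.0488%, of all. With median scaling 5 fell and 1 rose in vivo and 6 fell and 1 rose in vitro, against 17.2% and 5.35%, and 19.8% and 5.84%, of all. Both comparisons use the same GV arrays, so they are not independent.

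**Figure D1:**
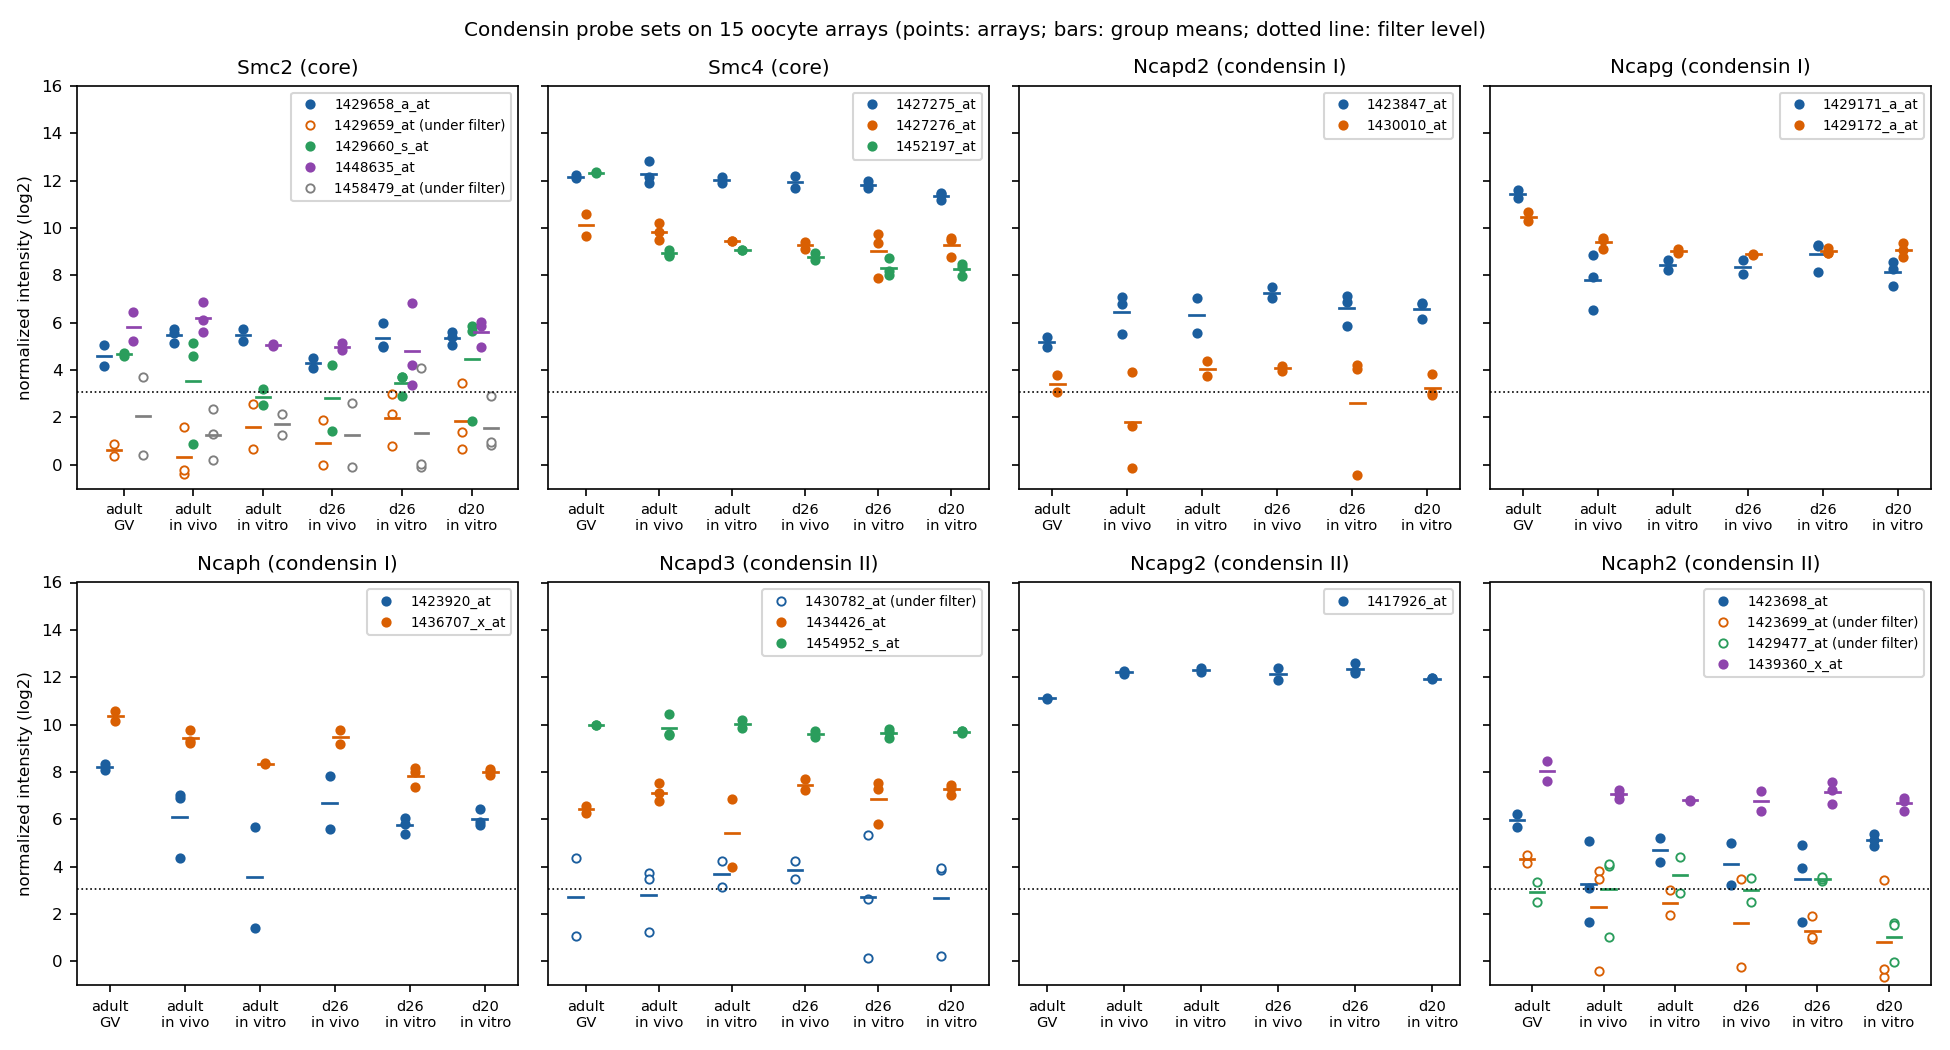
Normalized log2 intensity (vertical axis) of all 22 condensin probe sets on the 15 arrays, 1 panel per gene, by group (horizontal axis). Points are arrays, bars group means, open circles probe sets under the filter, and the dotted line the filter level of 3.07. On this scale all 13 MII arrays lie below both GV arrays for Smc4 1452197_at, both Ncapg, both Ncaph and 3 Ncaph2 probe sets, and above both for Ncapg2 and Ncapd2 1423847_at. The share of all probe sets separated in this way was not computed, so whether the separation is particular to condensin is unknown. By limma calls, a different measure, 11.1% (in vivo) and 11.7% (in vitro) of all tested were lower in adult MII than in GV. Called higher were 15.7% and 16%.

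The core ATPase gene Smc4 had 3 probe sets with unlike results. On 1452197_at the GV arrays read 12.37 and 12.31. The adult in vivo arrays read 8.83, 8.88 and 9.07, and the adult in vitro arrays 9.07 and 9.09. The d26 arrays read 8.93 and 8.63 in vivo and 8.18, 8.01 and 8.72 in vitro, and the d20 arrays 7.97, 8.50 and 8.35. All 13 MII arrays therefore lay more than 3 log2 units below the GV arrays. The difference from GV was -3.41 (SE 0.28, 95% interval -4.01 to -2.81, limma adjusted p = 3.4e-06) in vivo, a 10.6-fold lower value. In vitro it was -3.26 (SE 0.31, -3.92 to -2.60, adjusted p = 9.89e-06). Both calls held in all 24 alternatives, from -3.96 to -3.13 in vivo and from -4.75 to -3.04 in vitro.

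The other Smc4 probe sets did not pass the test. On 1427275_at the GV arrays read 12.24 and 12.10, adult in vivo 12.85, 12.16 and 11.90, and adult in vitro 11.91 and 12.14, so the groups overlapped. The differences were 0.13 (95% interval -0.42 to 0.68, adjusted p = 0.784) and -0.15 (-0.75 to 0.46, adjusted p = 0.761). On 1427276_at, which ranged from 7.91 to 10.57 over all arrays, they were -0.27 (-1.27 to 0.73) and -0.66 (-1.75 to 0.44). Within an array, where a scale factor common to its probe sets cancels, 1452197_at minus 1427275_at relative to GV was -4.19 to -3.00 in the 13 MII arrays. On the intensities as deposited it was -5.09 to -2.89, with the GV arrays within 0.04 of their mean on either scale. This pair was not a planned comparison and restates the unlike values above. Where each probe set lies on the transcript was not analysed here.

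Smc2, the partner ATPase, had 5 probe sets, all dim. Those past the filter were 1429658_a_at (4.08 to 6.0 over the 15 arrays), 1429660_s_at (0.88 to 5.87) and 1448635_at (3.36 to 6.86). None passed in either comparison with GV in the main fit (all 15 arrays, quantile normalized). On 1429658_a_at the adult MII arrays (5.15 to 5.74) lay above the GV arrays (4.15 and 5.04), with differences of 0.89 (95% interval -0.20 to 1.98, adjusted p = 0.239) in vivo and 0.88 (-0.31 to 2.08, adjusted p = 0.28) in vitro. On 1448635_at the differences were 0.37 (-1.35 to 2.08) and -0.78 (-2.66 to 1.11). On 1429660_s_at they were -1.13 (-4.01 to 1.76) and -1.80 (-4.96 to 1.35), opposite in sign to 1429658_a_at. The remaining Smc2 probe sets, 1429659_at and 1458479_at, were under the filter, with means of 1.25 and 1.51 over all arrays. The highest deposited Smc2 intensity was 327. On the scale as deposited the 1429658_a_at differences were -0.55 and -1.34, so their sign depends on the scaling. There 1448635_at was called lower in vitro (-3.35, limma adjusted p = 0.0126), beside a median of -1.94 over all probe sets.

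Ncapg, a HEAT-repeat subunit of condensin I, fell on both probe sets. On 1429171_a_at the GV arrays read 11.27 and 11.59, and all 13 MII arrays lay below 10. The adult in vivo arrays read 8.88, 6.56 and 7.95, and the adult in vitro arrays 8.22 and 8.64. At d26 they read 8.65 and 8.05 in vivo and 8.14, 9.27 and 9.24 in vitro, and at d20 8.25, 8.56 and 7.57. The difference from GV was -3.64 (SE 0.55, 95% interval -4.82 to -2.45, adjusted p = 0.000251) in vivo and -3.00 (SE 0.61, -4.30 to -1.71, adjusted p = 0.00185) in vitro, and both calls held in all 24 alternatives.

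The smaller fall of Ncapg was on 1429172_a_at. There the GV arrays read 10.29 and 10.68, adult in vivo 9.58, 9.49 and 9.14, and adult in vitro 8.93 and 9.13. The d26 arrays ranged from 8.87 to 9.17 and the d20 arrays from 8.77 to 9.37, so no MII array reached a GV value. The differences were -1.08 (SE 0.27, adjusted p = 0.00759) and -1.45 (SE 0.29, adjusted p = 0.00193). The in vivo call was lost without GV replicate 2 (-0.90, adjusted p = 0.121) and on the values as deposited (-1.97, adjusted p = 0.108). In vitro it held in all 24 alternatives.

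Ncaph, the kleisin of condensin I, fell in both comparisons on its brighter probe set. On 1436707_x_at the GV arrays read 10.59 and 10.17. The adult in vivo arrays read 9.29, 9.78 and 9.21, and the adult in vitro arrays 8.36 and 8.33. The in vitro fall of 2.03 on the log2 scale (difference -2.03, SE 0.35, 95% interval -2.78 to -1.29, adjusted p = 0.000613) held in all 24 alternatives. The in vivo difference of -0.95 (SE 0.32, -1.63 to -0.27, adjusted p = 0.0381) was near the threshold and lost its call in 10 of 24 alternatives. Among these were the fits without GV replicate 1 (-0.76, adjusted p = 0.286), GV replicate 2 (-1.18, adjusted p = 0.0831), adult in vivo replicate 1 (-0.87, adjusted p = 0.0786), adult in vivo replicate 3 (-0.84, adjusted p = 0.11) and d20 in vitro replicate 1 (-0.96, adjusted p = 0.0523). By Affymetrix's naming, the suffix _x_at marks a probe set that may cross-hybridize with other transcripts. Ncaph2 1439360_x_at, below, carries it too.

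On the dimmer Ncaph probe set, 1423920_at, the GV arrays read 8.35 and 8.09, adult in vivo 4.37, 7.01 and 6.90, and adult in vitro 5.68 and 1.42. The in vivo difference of -2.12 (SE 1.04, adjusted p = 0.156) did not pass. The in vitro difference of -4.67 (SE 1.13, adjusted p = 0.00622) owed much of its size to adult in vitro replicate 2, a dim array, at 1.42. Without it the difference was -2.56 (adjusted p = 0.105), and without all dim arrays -2.62 (adjusted p = 0.0168).

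Ncapd2, the remaining HEAT-repeat subunit of condensin I, did not pass in the main fit. On 1423847_at the GV arrays read 4.98 and 5.41. The adult in vivo arrays read 5.52, 7.09 and 6.80, and the adult in vitro arrays 7.06 and 5.56, all above GV, and the d26 and d20 arrays 5.87 to 7.49. The differences were 1.28 (95% interval 0.04 to 2.51, adjusted p = 0.124) and 1.12 (-0.23 to 2.47, adjusted p = 0.22). The dim arrays held the lowest adult MII readings. Without them the differences were 1.90 (adjusted p = 0.00194) and 2.02 (adjusted p = 0.00537), and without adult in vivo replicate 1 alone the in vivo difference was 1.79 (adjusted p = 0.0288). As deposited they were -0.40 and -1.49, beside medians over all probe sets of -0.98 and -1.94, so the sign of the Ncapd2 difference depends on the scaling. The other probe set, 1430010_at, was just inside the filter with a mean of 3.08 and ranged from -0.41 to 4.37.

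**Figure D2:**
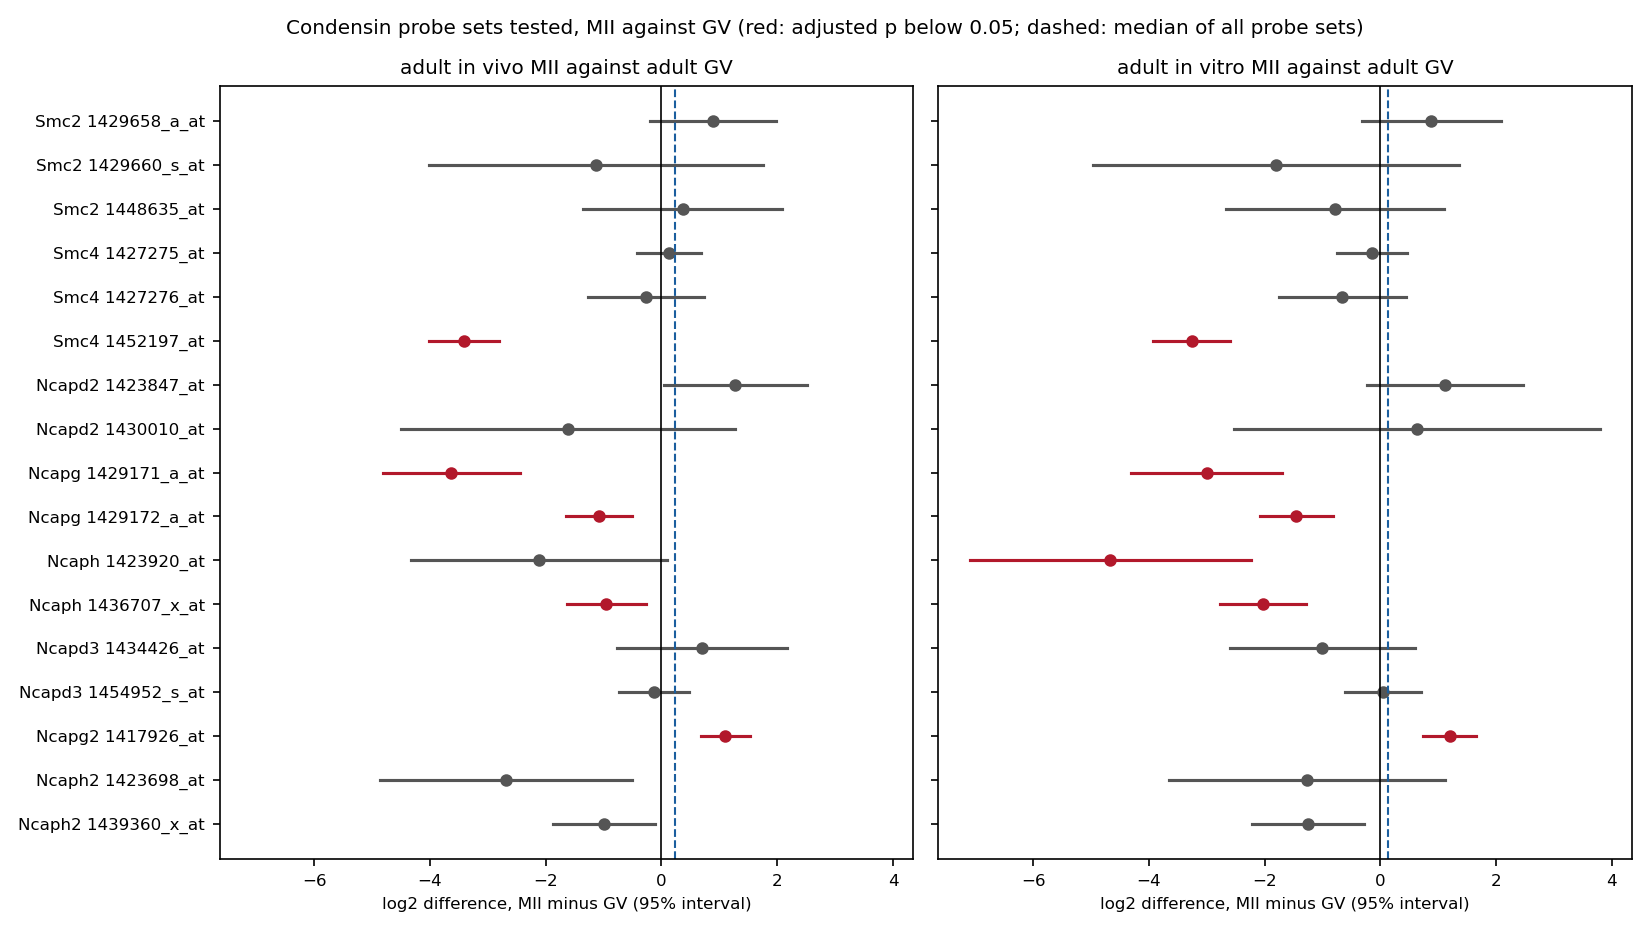
Log2 difference of adult MII from adult GV oocytes (horizontal axis) for the 17 tested condensin probe sets (vertical axis), with 95% intervals, after maturation in vivo (left) and in vitro (right). Red marks a limma adjusted p below 0.05, and the dashed line is the median of all probe sets (0.24 and 0.13). Ncapg2 lies to the right of 0 in both panels (as deposited, not plotted, it is at 0.49 and -0.05), and Smc4 1452197_at and both Ncapg probe sets to the left.

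Ncapg2, the condensin II counterpart of Ncapg, rose. The GV arrays read 11.11 and 11.10 on 1417926_at. The adult in vivo arrays read 12.22, 12.15 and 12.27, the adult in vitro arrays 12.21 and 12.39, the d26 in vivo arrays 12.40 and 11.88, and the d26 in vitro arrays 12.27, 12.62 and 12.18. The d20 arrays read 11.96, 11.91 and 11.96, and no MII array overlapped GV. The difference was 1.10 (SE 0.20, 95% interval 0.68 to 1.53, adjusted p = 0.000773) in vivo, a 2.15-fold higher value, and 1.20 (SE 0.22, 0.73 to 1.66, adjusted p = 0.000853) in vitro. Both calls held in all alternatives but 1. The exception was the scale as deposited, where the differences were 0.49 (adjusted p = 0.671) and -0.05 (adjusted p = 0.958), so the sign turned in vitro. On that scale the median of all probe sets shifted by -0.98 and -1.94, and Ncapg2 lay 1.47 and 1.90 above it.

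A comparison within arrays, chosen after the values were seen, sets the G subunits of the complexes against each other. Ncapg2 1417926_at minus Ncapg 1429172_a_at, relative to the GV mean, was 1.96 to 3.05 in the 13 MII arrays and -0.20 to 0.20 in GV. As deposited it was 1.94 to 4.10. A scale factor common to an array cancels in such a difference, so the likeness of the 2 scales is no separate support. The mean was 2.18 in adult in vivo, 2.65 in adult in vitro, 2.63 in d26 in vivo, 2.71 in d26 in vitro and 2.24 in d20 in vitro oocytes.

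**Figure D3:**
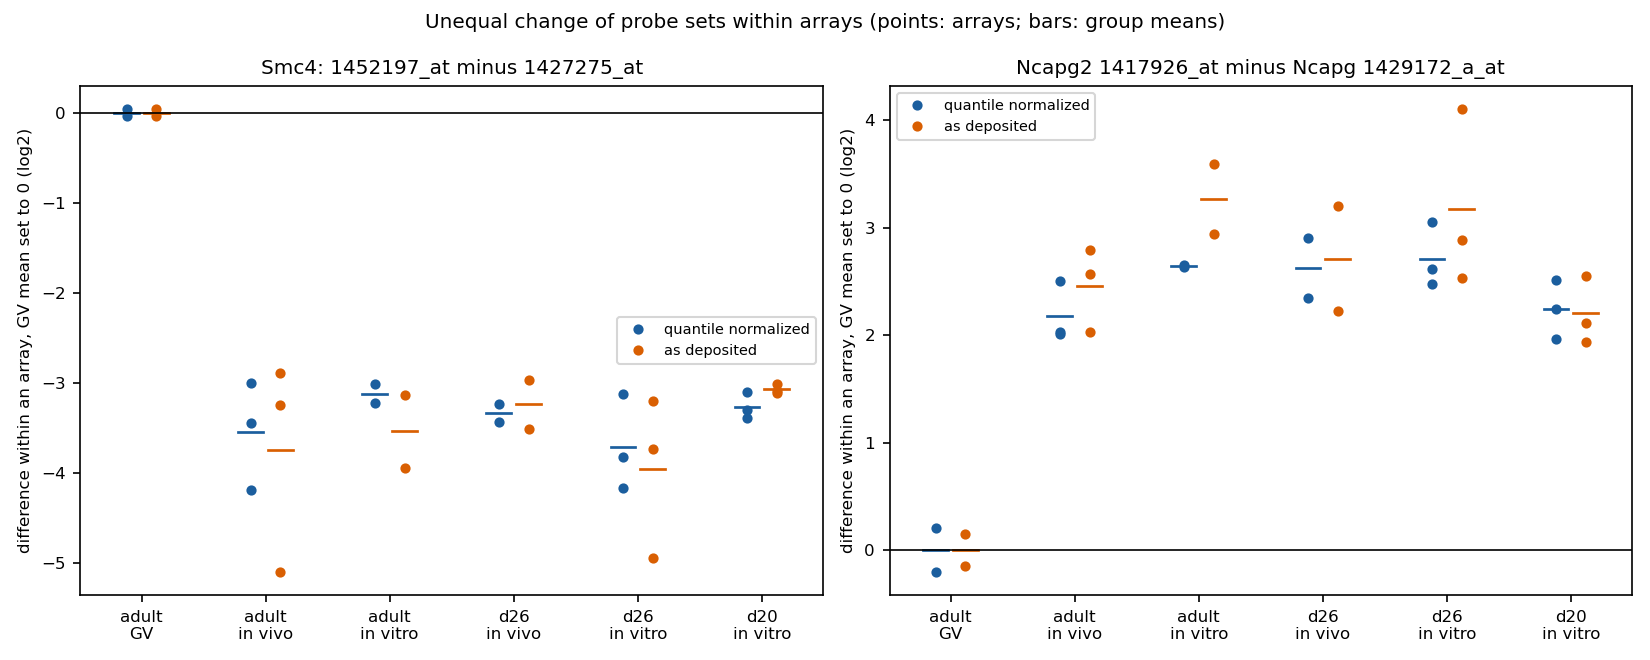
Difference between 2 probe sets of the same array (vertical axis, log2, GV mean set to 0) by group (horizontal axis), after quantile normalization (blue) and as deposited (orange). Points are arrays and bars group means. In the 13 MII arrays Smc4 1452197_at minus 1427275_at is -4.19 to -3.00 (blue), and Ncapg2 minus Ncapg is 1.96 to 3.05 (blue). Neither pair was a planned comparison.

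The other condensin II subunits did not pass in the main fit. Ncapd3, the HEAT-repeat protein that pairs with NCAPG2, read 9.99 on both GV arrays on 1454952_s_at, 10.43, 9.61 and 9.55 in adult in vivo and 9.87 and 10.20 in adult in vitro oocytes. The differences were -0.12 (95% interval -0.73 to 0.48) and 0.05 (-0.61 to 0.71), so changes over 0.73 on this scale were outside both intervals. That does not hold for the intensities as deposited. They were 2220 and 1976 in GV, 598.5, 1260 and 1241 in adult in vivo, and 845.1 and 409.8 in adult in vitro oocytes. Its second tested probe set, 1434426_at, gave 0.70 (-0.76 to 2.16) and -1.0 (-2.60 to 0.60), with a low reading of 3.97 in adult in vitro replicate 2 beside 6.87 in replicate 1. Without the dim arrays these were 0.91 (adjusted p = 0.0447) and 0.46 (adjusted p = 0.412). Without adult in vitro replicate 1, which leaves the low reading alone, the in vitro difference was -2.47 (adjusted p = 0.0136). As deposited 1434426_at was called lower in vitro (-3.56, limma adjusted p = 0.0383), beside a median of -1.94 over all probe sets. The 2 probe sets of Ncapd3 correlated at r = -0.66 over the 15 arrays, as a description.

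Ncaph2, the kleisin of condensin II, was lower in adult MII on both tested probe sets without passing in the main fit. Under other settings both passed. With median scaling 1439360_x_at gave -1.88 (limma adjusted p = 0.0118) in vivo and -2.48 (0.00372) in vitro. As deposited it gave -3.89 (0.00914) in vitro, and 1423698_at -4.46 (0.0122) in vivo and -3.80 (0.0304) in vitro. Medians over all probe sets on that scale were -0.98 and -1.94. Array weights and the pseudocount also gave Ncaph2 calls. On 1439360_x_at the GV arrays read 8.48 and 7.61, adult in vivo 7.06, 6.86 and 7.23, and adult in vitro 6.82 and 6.77. The differences were -1.0 (95% interval -1.88 to -0.12, adjusted p = 0.0903) and -1.25 (-2.21 to -0.29, adjusted p = 0.0516). The in vitro value passed when any of several arrays was left out: GV replicate 2 (-1.72, adjusted p = 0.0483), adult in vivo replicate 1 (-1.25, 0.0477), d26 in vivo replicate 1 (-1.24, 0.0499) and d26 in vitro replicates 2 (-1.25, 0.0385) and 3 (-1.24, 0.048). On 1423698_at the GV arrays read 5.69 and 6.23 and the adult MII arrays 1.65 to 5.22. The differences were -2.68 (adjusted p = 0.0665) and -1.26 (adjusted p = 0.459). The in vivo value passed without adult in vivo replicate 1 (-3.62, adjusted p = 0.0135), without d26 in vitro replicate 2 (-2.71, adjusted p = 0.0282) and without the dim arrays (-3.75, adjusted p = 0.00107).

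The 5 probe sets under the filter were Smc2 1429659_at and 1458479_at, Ncapd3 1430782_at (mean 3.01, the nearest outside) and Ncaph2 1423699_at and 1429477_at (means 2.00 and 2.79). In a fit without the filter none passed in any comparison, with a smallest adjusted p of 0.337.

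Taking for each gene the probe set with the highest mean, the mean of the condensin II specific subunits was set against that of the condensin I ones. Their difference within arrays, relative to GV, was 0.25 ± 0.51 (SD, n = 3) in adult in vivo, 0.79 ± 0.42 (n = 2) in adult in vitro, -0.07 ± 0.24 (n = 2) in d26 in vivo, 0.86 ± 0.39 (n = 3) in d26 in vitro and 0.52 ± 0.16 (n = 3) in d20 in vitro oocytes. The in vivo MII arrays ran from -0.28 to 0.74 and overlapped the GV arrays at -0.21 and 0.21. The in vitro MII arrays ran from 0.33 to 1.31, above both GV arrays. These differences were not tested.

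The comparison of maturation in vivo with maturation in vitro asked whether culture changes the egg's transcripts at each age. None of the 17 condensin probe sets passed in adults, where 0.00444% of all probe sets did, or at d26, where 0.04% did. At an unadjusted p below 0.05, 3 did so in adults (8% of all) and 1 at d26 (6.8% of all). Ncaph 1436707_x_at had the smallest condensin p at both ages. In vivo arrays read 9.29, 9.78 and 9.21 in adults and 9.19 and 9.76 at d26. In vitro arrays read 8.36 and 8.33 in adults, 7.99, 8.17 and 7.38 at d26 and 8.04, 7.86 and 8.12 at d20, so no in vitro array reached an in vivo one. The in vivo value was higher by 1.08 in adults (SE 0.32, 95% interval 0.40 to 1.76, adjusted p = 0.425) and by 1.63 at d26 (SE 0.32, 0.95 to 2.31, adjusted p = 0.0938). The d26 difference passed with median scaling (2.39, adjusted p = 0.0434) and with array weights (1.76, adjusted p = 0.0401).

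The mean of the adult and d26 differences was added as a contrast after these Ncaph values were seen, so its result is a description of what prompted it. It was 1.35 (SE 0.23, 95% interval 0.87 to 1.84, adjusted p = 0.0247), and Ncaph 1436707_x_at was the 1 condensin probe set of 17 called, where 0.226% of all were. The call was lost in 13 of 24 alternatives, with values from 1.21 to 2.57 over all 24 and adjusted p up to 0.242. Without GV replicate 1 it was 1.38 (adjusted p = 0.054), without GV replicate 2 1.38 (0.0519), without adult in vivo replicates 2 and 3 in turn 1.27 (0.0659) and 1.40 (0.0602), and without adult in vitro replicate 2 1.34 (0.102). Without d26 in vivo replicates 1 and 2 in turn it was 1.49 (0.0547) and 1.21 (0.186), without d26 in vitro replicate 3 1.23 (0.0509) and without d20 in vitro replicate 1 1.36 (0.0539). Without the dim arrays it was 1.26 (0.0536). The d26 in vivo arrays had the highest ratios of the 3' to the 5' Gapdh control signal (82.3 and 68.0, against 2.27 to 26.8 elsewhere), a measure of how far RNA or its copies are shortened. The 5' signals there were only 0.76 and 4.0, below the array medians of 8.84 and 16.2, so these ratios are uncertain. The part of RNA shortening in the Ncaph difference was not tested. The dimmer Ncaph probe set gave 2.54 (adjusted p = 0.573) in adults and 0.94 (adjusted p = 0.838) at d26, with overlapping groups.

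**Figure D4:**
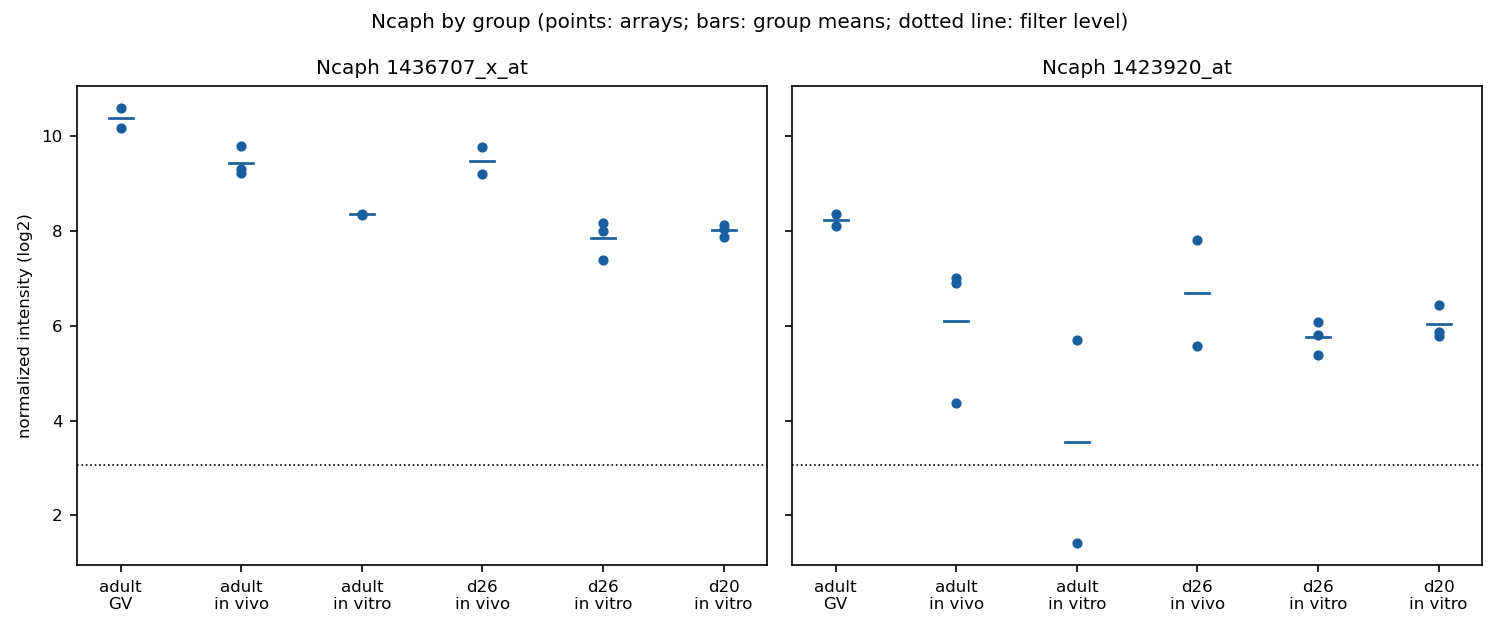
Normalized log2 intensity of the Ncaph probe sets (vertical axis) by group (horizontal axis). Points are arrays, bars group means, and the dotted line is the filter level of 3.07. On 1436707_x_at (left) the 5 in vivo arrays lie between 9.19 and 9.78 and the 8 in vitro arrays between 7.38 and 8.36, whereas on 1423920_at (right) they overlap.

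Values for the remaining probe sets called against GV were as follows, none of them called by maturation. Smc4 1452197_at differed by -0.15 (95% interval -0.75 to 0.45) in adults and 0.48 (-0.12 to 1.08) at d26. Ncapg 1429172_a_at differed by 0.37 (-0.20 to 0.95) and -0.13 (-0.71 to 0.44), and Ncapg2 by -0.09 (-0.51 to 0.33) and -0.22 (-0.64 to 0.20). The other Ncapg probe set, 1429171_a_at, had wider intervals, with -0.63 (-1.82 to 0.55) in adults and -0.53 (-1.72 to 0.65) at d26. None of the condensin probe sets passed the test of whether the in vivo to in vitro difference changes with age, nor did any of all probe sets tested (0 called, 0%, limma). At an unadjusted p below 0.05, 0 of the 17 and 840 of all passed that interaction. The intervals remain wide for dim probe sets, such as -0.38 to 7.79 for Ncapd2 1430010_at.

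The age comparisons asked whether eggs matured in vitro from younger females differ from those of adults. None of the 17 probe sets passed for d20 against adult (0.0222% of all called), d26 against adult (0.00444%) or d20 against d26 (0%). At an unadjusted p below 0.05 the counts were 4, 1 and 1 of 17, against 17.6%, 7.34% and 11.5% of all probe sets. Smc4 1452197_at read lower in the younger groups. The adult arrays were at 9.07 and 9.09 and all 6 younger arrays between 7.97 and 8.72, with differences of -0.80 (95% interval -1.40 to -0.20, adjusted p = 0.199) at d20 and -0.78 (-1.38 to -0.17, adjusted p = 0.592) at d26. Smc4 1427275_at was lower at d20 (11.19, 11.43 and 11.48) than in adults (11.91 and 12.14) with a difference of -0.66 (95% interval -1.21 to -0.11, adjusted p = 0.228). For Ncapg2 the d20 arrays (11.91 to 11.96) lay below the d26 in vitro arrays (12.18 to 12.62), a difference of -0.41 (-0.79 to -0.04, adjusted p = 0.419).

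Readings of 1423920_at (Ncaph) and 1434426_at (Ncapd3) in adult in vitro oocytes were spread by replicate 2, at 1.42 and 3.97 beside 5.68 and 6.87. Leaving out replicate 1, so that the low array stood alone, made both pass in 3 comparisons. The values for Ncaph were 4.69 (adjusted p = 0.0297) for adult in vivo, 4.63 (adjusted p = 0.0231) for d20 and 4.35 (adjusted p = 0.0463) for d26 against adult in vitro. For Ncapd3 they were 3.17 (adjusted p = 0.0217), 3.32 (adjusted p = 0.0136) and 2.91 (adjusted p = 0.0358). The mean maturation difference of both passed in that fit too (2.82, adjusted p = 0.0378, and 1.88, adjusted p = 0.0335). Without the dim arrays, which include replicate 2, the differences for the 3 comparisons were 1.36, 0.37 and 0.12 for Ncaph and 0.45, 0.42 and 0.44 for Ncapd3, none of them called.

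Probe sets of one gene did not always follow each other over the 15 arrays, which share their GV to MII step and their depth. The Pearson correlation was 0.67 for the pair of Ncapg, 0.54 for Ncaph, 0.18 for Ncaph2 and 0.17 for Ncapd2. It was 0.24 to 0.50 among the 3 of Smc4 and -0.04 to 0.16 among those of Smc2. Between genes, Smc4 1452197_at followed Ncapg 1429172_a_at (0.87) and ran against Ncapg2 (-0.83). Outside the complex, the genes most like each member's brightest probe set over the 15 arrays were Mpdz and Twsg1 for Ncapg2 (0.97 each), Tmco3 (0.97) and Cpa1 (0.96) for Ncapd2, and Pabpc1l (0.95) and Ndrg4 (0.94) for Ncaph. They were Tuba4a and Rpl13a (0.94 each) for Ncapg, Rps24 (0.93) and Arpp19 (0.87) for Ncaph2, and Ctu2 (0.89) and Rnpc3 (0.88) for Ncapd3. For Smc4 1427275_at they were Txnl1 (0.87) and Srsf2 (0.86), and for Smc2 E130119H09Rik (0.87) and Kdf1 (0.80).

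Related complexes give the setting of these values. Of the 8 condensin genes, each taken by its brightest tested probe set, 2 fell and 1 rose against GV in each comparison. Over all 12028 genes taken that way, 12.3% fell and 18.3% rose in vivo and 12.9% and 18.4% in vitro. On the scale as deposited 0 of the 8 condensin genes rose, and 0 fell in vivo and 4 in vitro. Over all genes on that scale, 16% fell and 0.0915% rose in vivo and 28.6% fell and 0.0499% rose in vitro, with medians of -0.97 and -1.93, and the list counts as deposited below are to be read against these shares. Of 14 tested genes of the cohesin list, whose complex holds sister chromatids together, 7 rose and 3 fell in vivo and 6 rose and 3 fell in vitro. As deposited 0 of the 14 rose and 2 fell in each comparison. The 4 cohesin genes with the smallest in vivo p-values all rose: Stag1 (2.74 in vivo, adjusted p = 6.79e-05, and 3.01 in vitro, adjusted p = 7.91e-05), Stag2 (2.25 and 2.56), the mitotic kleisin Rad21 (1.47 and 1.46) and the releasing factor Wapl (1.14 and 1.17). As deposited their in vitro differences were 0.37, 0.18, -0.20 and -0.08, so the last pair turned sign, and none of the 4 was called. Other probe sets of all 4 genes did not all pass, and the second ones of Stag2 and Wapl passed in neither comparison. The cohesin genes that fell, named after their values were seen, were the meiotic core subunit Smc1b (-2.87, adjusted p = 0.015, and -4.85, adjusted p = 0.000872), its mitotic counterpart Smc1a (-1.47, adjusted p = 0.00733, and -1.38, adjusted p = 0.0182) and Cdca5, sororin (-0.84, adjusted p = 0.0464, and -1.01, adjusted p = 0.0305). As deposited Smc1b and Smc1a were called lower in both comparisons and Cdca5 in neither. Of 8 tested genes of the SMC5/6 complex, a further relative of condensin that acts in genome maintenance, 4 rose and 0 fell in both comparisons. They were Smc5 (2.49 and 2.78), Smc6 (1.87 and 1.31), Nsmce3 (1.90 and 1.89) and Nsmce4a (1.42 and 1.87). As deposited none of the 8 rose, and 0 and 1 fell. A second Smc5 probe set gave -1.48 (adjusted p = 0.128) in vivo.

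Of 30 tested regulators and partners of chromosome condensation, 13 fell and 6 rose in vivo and 12 fell and 5 rose in vitro, with medians of -0.96 and -1.15. As deposited 9 and 18 fell and 0 rose. Top2a, the topoisomerase that works with condensin on mitotic chromosomes, fell (-3.43, adjusted p = 8.61e-05, and -3.95, adjusted p = 7.13e-05), while its paralog Top2b rose (2.49 and 2.27). The Top2b differences were 0.57 and -0.62 as deposited, and its other tested probe set did not pass. Nusap1, a microtubule and chromatin binding protein, fell (-3.32 and -4.18) on 1 of its tested probe sets. Ppp2ca, a catalytic subunit of protein phosphatase 2A, fell on the probe set taken (-2.45 and -1.98) and rose on its other tested one (1.93, adjusted p = 0.00442, and 2.37, adjusted p = 0.00202), so its direction is unsettled.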

How the data were processed

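The authors deposited 1 table of linear intensities, 45101 probe sets by 15 arrays. The submitters' processing notes name MAS5. The sources used here give neither its version nor its scaling. Array medians ran from 5.08 to 25.3, so log2 values of the 45037 probe sets other than controls were quantile normalized. Probe sets in the upper 50% by mean (3.07 or more) were fitted in limma 3.58.1 (R 4.3.3), with 1 coefficient for each of 6 groups, 9 residual degrees of freedom and an intensity trend. Benjamini-Hochberg adjustment ran within each comparison, with calls at an adjusted p below 0.05. The number of arrays limits precision. The method was tested on simulated data whose changes were larger than the smallest ones called here, with no dim arrays. Named were all condensin probe sets, the 4 smallest in vivo p-values of each list and the 2 genes most correlated with each member. Members and lists were chosen with earlier results of these data known. Alternatives were other scalings, filters, a pseudocount of 16, fits to the compared arrays alone, no trend, array weights, and leaving out dim or single arrays. Replicate numbers follow record order and pair no samples. Promoter sequences are RefSeq's, GRCm38.p6, and that table holds no window of Smc4.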

Additional observations from a re-analysis of the deposited data

How the results depend on the processing

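Over 153 condensin results (17 probe sets in 9 comparisons) under 24 alternatives, 27 outcomes lost a call, 40 gained one and 1 turned the sign of a call, Ncapg2 in vitro as deposited (-0.0467). Another 207 changed sign with no call on either side. The number called in vivo against GV (5) was 3 as deposited, 10 with array weights and 8 without the dim arrays. Its rises (1) were 0, 3 and 3, and its falls (4) were 7 with array weights. In vitro against GV, rises (1) were 0 as deposited and 2 without the dim arrays, and falls (5) were 9 as deposited. The d26 maturation count (0) was 1 with median scaling and 1 with array weights. The mean maturation count (1) was 0 as deposited, 0 in the compared arrays alone, 0 without a trend and 0 without the dim arrays. The cause of these moves was not tested. Leaving out single arrays, the in vivo count against GV was 3 (without GV replicate 2) to 6, rises 1 to 2 (adult in vivo replicate 1) and falls 2 (GV replicate 2) to 5. Counts for adult maturation, d20 against adult and d26 against adult ran from 0 to 2 (adult in vitro replicate 1), and for the mean maturation difference from 0 to 3. Groups of 2 or 3 arrays and dim arrays limit all these values.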
